A study of Mus musculus with 6 samples.

Results

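The 10 genes described here are neighbours of Arid3b on mouse chromosome 9: Clk3, Edc3, Csk, Ulk3, Scamp2, Mpi, Cox5a, Rpp25, Scamp5 and Ppcdc, of 21800 genes tested in all. They were found through the RefSeq accession that the arrays give for each probe, and all 10 had a probe, 11 probes in all. They were picked by their place beside the gene that was inactivated. The null against wild-type values of the same arrays were already known when the list was drawn up, so for these 10 genes the difference between genotypes is given as a description, with no test. The arrays measured RNA of hearts cut from mouse embryos at embryonic day 9.5, and each sample holds the tube of the heart together with underlying mesoderm and endoderm of the pharynx. The 3 wild-type and 3 Arid3b-null samples were each a pool of 4 embryos. How the null allele was built, which part of the gene it lacks and on which strain background the embryos were bred are not given in the sources used here. Because each sample is mixed tissue from pooled embryos, fewer cells of a type and less RNA per cell cannot be told apart.

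The ARID3B protein binds AT-rich DNA through its ARID domain, and mouse embryos need it to form a heart. When a gene is inactivated by targeting, its neighbours on the chromosome can be touched as well: an inserted cassette can alter nearby promoters, and the DNA linked to the targeted allele stays with it through breeding and can differ in sequence from that of wild-type controls. None of the 10 neighbours is known chiefly as a heart gene. They serve general work of the cell, namely splicing (Clk3), mRNA decapping (Edc3), control of Src kinases (Csk), signalling (Ulk3), membrane traffic (Scamp2 and Scamp5), sugar supply for glycoproteins (Mpi), respiration (Cox5a), RNA processing (Rpp25) and coenzyme A synthesis (Ppcdc).

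In the gene order of the mouse assembly GRCm38.p6, counting only genes that have a probe on the arrays, all 10 lie on the same side of Arid3b. Clk3 is its next neighbour, Edc3 is 2 genes away, Csk 5, Ulk3 8, Scamp2 9, Mpi 10, Cox5a 12, Rpp25 13, Scamp5 14 and Ppcdc 15. Of the 10, 5 are read from the plus strand and 5 from the minus strand. Just beyond the last of them, 16 genes away, 1700017B05Rik had a change of -0.01 on the log2 scale (SE 0.29), and Ubl7, the first gene on the other side of Arid3b, had one of -0.08 (SE 0.35).

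Between 27136 and 31039 of the 43020 non-control spots of an array were well above background. The 75th percentile of log2 signal ran from 9.5 to 10.16 on the wild-type arrays and from 9.02 to 9.47 on the null arrays. All levels below are log2 signals after subtraction of that percentile, and all changes are null minus wild type. Pools with the same number in both groups shared 1 of the 3 slides, always in the same places, so place on the slide and genotype cannot be told apart. All 9 heart muscle markers were well above background on all 6 arrays. By limma, 0 of them passed an adjusted p under 0.05 and 0 an unadjusted p under 0.05. The same held for the 5 endothelium markers, with 0 and 0. Of the markers of other cells, 5 of 5 measured platelet genes, 3 of 4 visceral endoderm genes, 2 of 4 macrophage genes and 1 of 4 trophoblast genes were higher in the null pools, and 2 of 4 neural genes were lower. For the 6 primitive erythroid genes that count was 0, but all 6 had an unadjusted p under 0.05, and their mean level ran from 2.34 to 3.33 in the wild-type pools and from 3.61 to 4.51 in the null pools. The trophoblast mean ran from -2.24 to -2.05 in the wild-type pools and from -1.60 to 0.49 in the null pools. The platelet mean ran from -2.9 to -2.23 and from 0.38 to 1.05. The part of these cells in the values of the neighbours was not tested. The small number of arrays limits the precision of every value.

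Arid3b itself separated the groups on each of its 3 probes. The brightest read 2.91, 3.4 and 3.69 in wild-type pools 1, 2 and 3, and 1.08, 0.52 and 0.45 in null pools 1, 2 and 3. Its mean was 3.33 ± 0.39 in wild type and 0.68 ± 0.34 in null (SD, n = 3 pools), a fall of 6.27-fold (log2 change -2.65, SE 0.26). The other 2 probes changed by -2.58 and -4.02, but each was well above background on only 2 of the 3 null arrays. Their null means were -6.29 and -5.75, so these sizes rest partly on values near background.

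The neighbours did not follow Arid3b as a group. Their changes ran from -2.87 to 1.48, with 6 genes lower and 4 higher in the null pools, and their median was -0.28, beside 0.03 over all genes tested. The median size of a change, whatever its sign, was 0.35 for the 10 genes and 0.30 over all genes. By the fit over all genes, 3 of the 10 passed a limma adjusted p under 0.05, where 10.5% of all genes did, and nothing is read from that count because the list was drawn up with this contrast in view. The 3 were Ppcdc and Mpi, lower, where 3.81% of all genes were called lower, and Rpp25, higher, where 6.64% were called higher. They were also the 3 whose groups did not overlap on the probe tested, which held for 32.9% of all genes. All 10 passed the filter on dim probes, but Ppcdc only through its wild-type arrays, so it had to differ to be kept at all. The other 9 were well above background on all 6 arrays.

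**Figure D1:**
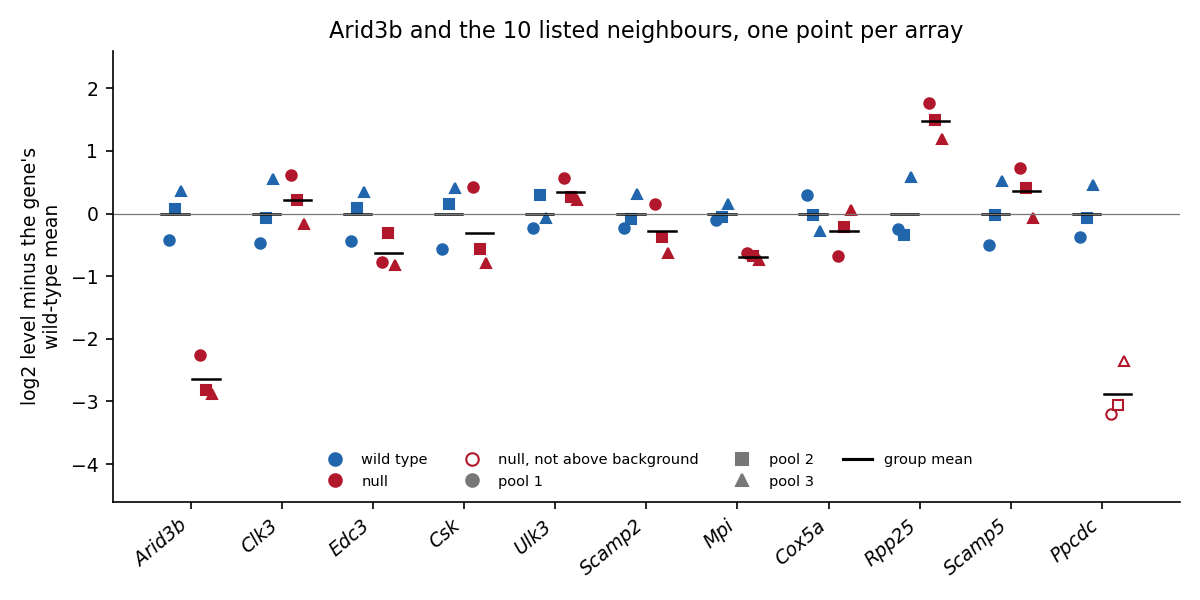
Levels of Arid3b and its 10 listed neighbours, on the brightest probe of each gene, as log2 signal minus the gene's own wild-type mean. Each point is 1 array (blue wild type, red null, open where not well above background, symbol by pool number), bars are group means, and the genes run from the nearest (Clk3) to the farthest (Ppcdc). The groups stand apart in Arid3b, Mpi, Rpp25 and Ppcdc and overlap in the other 7 genes.

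Ppcdc, which encodes the decarboxylase that makes phosphopantetheine in coenzyme A synthesis, had a single, faint probe. Before any scaling, the median brightness of its spot was 56, 64 and 81 in wild-type pools 1, 2 and 3, over a local background of 46, 43 and 41. On the null arrays the spot read 48, 47 and 46, over a local background of 44, 42 and 40. The spot thus stood 10, 21 and 40 units above its surroundings in the wild-type pools and 4, 5 and 6 units in the null pools. The scanner software called it well above background on all 3 wild-type arrays and on 0 of the 3 null arrays. On the scaled log2 scale it read -5.84, -5.53 and -5.01 in the wild-type pools and -8.66, -8.52 and -7.82 in the null pools, where the null values rest on processed signals of 1.76, 1.70 and 2.29 scanner units for a spot not well above background. Every wild-type pool lay above every null pool.

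**Figure D2:**
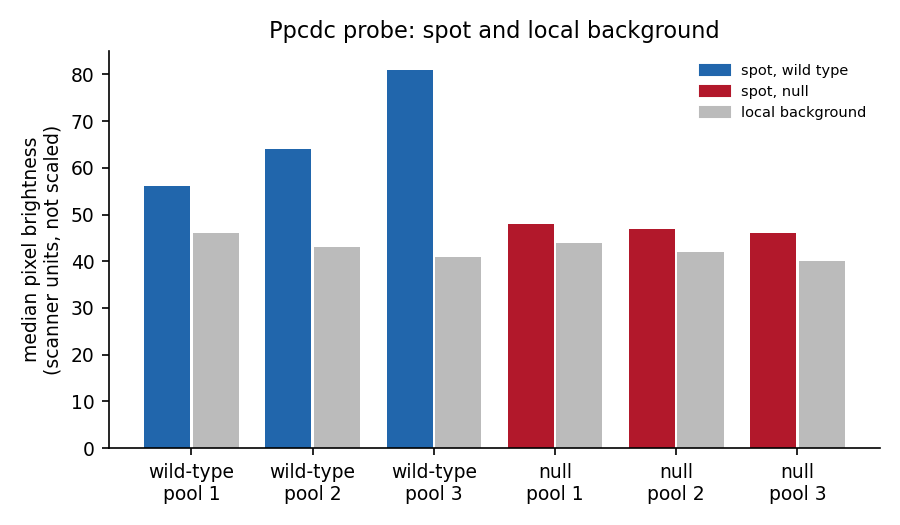
Median pixel brightness of the Ppcdc spot (coloured, blue wild type and red null) and of the background around it (grey) on each of the 6 arrays, in scanner units without scaling. The wild-type spots reach 56 to 81 and the null spots 46 to 48, over backgrounds of 40 to 46.

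Only a rough lower figure can be given for the size of that difference. With each null array's dimmest probe that still counted as well above background standing in for it, the difference was 1.85-fold. That is no strict bound, because a spot can be brighter and still not count as well above background. In null pool 3 an Arid3b probe read -5.78 without counting, where the stand-in was -5.87. The fitted change of Ppcdc, -2.87 (SE 0.30), rests on null values at background and is no estimate of a fold. With normexp, a background correction that keeps a dim spot near its surroundings, the fitted change was -0.37, and Ppcdc was no longer called. When a probe had to be above background on all 6 arrays, 9 genes were left, Ppcdc being the one that dropped out. By Euclidean distance over the 6 arrays, after each gene's mean was subtracted, the 3 genes ranked nearest to Ppcdc were Hs3st2, BC023846 and Nkx6-1. Hs3st2 and BC023846 were, like Ppcdc, well above background on all 3 wild-type arrays and on 0 null arrays. Nkx6-1, with a change of -2.90, was well above background on all 3 wild-type and all 3 null arrays. The ranking rests on null values of Ppcdc at background, so no distance is given.

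Rpp25, a protein subunit of RNase P and RNase MRP, the enzymes that cut the leader from transfer RNA precursors and process ribosomal RNA, lay higher in every null pool. It read -2.28, -2.37 and -1.45 in wild-type pools 1, 2 and 3, and -0.27, -0.55 and -0.84 in null pools 1, 2 and 3. This gave a mean of -2.03 ± 0.51 for wild type and of -0.55 ± 0.28 for null (SD, n = 3 pools), a 2.79-fold difference (log2 change 1.48, SE 0.28). Wild-type pool 3 came closest to the null pools, and within slides 1, 2 and 3 the null array lay 2.01, 1.83 and 0.61 above its wild-type neighbour. The change ran from 1.19 to 1.78 over the 17 alternatives.

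Mpi, mannose phosphate isomerase, which links glycolysis to the mannose used for glycoproteins, lay lower in every null pool. It read 0.97, 1.03 and 1.24 in the wild-type pools and 0.45, 0.40 and 0.34 in the null pools. The mean was 1.08 ± 0.14 for wild type and 0.40 ± 0.06 for null (SD, n = 3 pools), a 1.61-fold difference (log2 change -0.69, SE 0.15). The null array lay lower within slides 1, 2 and 3 by 0.52, 0.63 and 0.90. With the slide as a block, which is the shared pool number, 1 of the 10 genes was called in place of 3. That gene was Ppcdc, whose null values lie at background, so its call does not make it the firmest of the 3. The count of the 10 genes called was also 1 with no filter on dim probes. It was 1 as well when wild-type pool 1, wild-type pool 2 or null pool 2 was left out. It was 2 when any of the other 3 pools was left out.

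The stretches around the starts of Ppcdc, Rpp25 and Mpi are shown because they are the neighbours whose groups did not overlap on the probe tested. Each runs from 250 bases before to 50 bases after the start, 5′ to 3′ on the gene's own strand, from RefSeq on GRCm38.p6, with CG pairs in capitals. They lie at chr9:57439687-57439986 on the minus strand (Ppcdc, 11 CG pairs), chr9:57503852-57504151 on the plus strand (Rpp25, 17 CG pairs) and chr9:57552703-57553002 on the minus strand (Mpi, 13 CG pairs).
Ppcdc: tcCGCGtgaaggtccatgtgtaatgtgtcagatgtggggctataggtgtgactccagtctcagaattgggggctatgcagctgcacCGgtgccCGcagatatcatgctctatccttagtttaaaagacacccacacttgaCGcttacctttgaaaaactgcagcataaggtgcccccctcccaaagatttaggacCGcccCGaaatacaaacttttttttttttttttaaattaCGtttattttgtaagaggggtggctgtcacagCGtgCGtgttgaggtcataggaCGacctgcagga
Rpp25: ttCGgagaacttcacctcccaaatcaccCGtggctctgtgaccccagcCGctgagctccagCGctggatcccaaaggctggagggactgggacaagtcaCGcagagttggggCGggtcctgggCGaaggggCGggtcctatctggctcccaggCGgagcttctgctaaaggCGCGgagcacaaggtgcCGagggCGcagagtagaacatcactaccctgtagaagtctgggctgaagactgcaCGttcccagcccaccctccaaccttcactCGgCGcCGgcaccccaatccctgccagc
Mpi: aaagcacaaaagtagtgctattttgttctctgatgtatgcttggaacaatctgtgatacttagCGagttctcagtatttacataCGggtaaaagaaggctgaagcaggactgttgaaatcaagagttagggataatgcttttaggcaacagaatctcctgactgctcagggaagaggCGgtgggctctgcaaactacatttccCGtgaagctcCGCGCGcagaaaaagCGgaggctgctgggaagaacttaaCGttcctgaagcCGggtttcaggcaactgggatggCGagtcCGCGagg
The Rpp25 start is GC-rich, with 36.3% A and T, while the starts of Ppcdc and Mpi hold 52.7% and 51.7%. RefSeq gave a start for all 10 neighbours, 11 windows in all since Csk has 2. They held between 9 and 35 CG pairs, beside a median of 7 over the 32851 windows of all genes, and between 25.3% and 52.7% A and T, beside a median of 47.3%. ARID proteins of this family bind AT-rich DNA. The letters ATTAA, searched on both strands, were in 0 of the 11 windows and in 27.1% of all windows. That says only that these letters are not in these windows.

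Edc3, which binds the decapping enzyme and helps to take the cap off mRNAs, lay between. It read -1.70, -1.17 and -0.92 in wild-type pools 1, 2 and 3, and -2.03, -1.57 and -2.08 in null pools 1, 2 and 3. Only null pool 2 reached the wild-type range. The log2 change was -0.63 (SE 0.25), and the null array was lower on each slide, by 0.34, 0.40 and 1.17.

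Clk3, the kinase next to Arid3b, phosphorylates SR splicing factors. It read 0.23, 0.62 and 1.25 in the wild-type pools and 1.32, 0.91 and 0.54 in the null pools. The groups overlapped over most of their range. The change was 0.22 (SE 0.31), and it was -0.01 without wild-type pool 1 and 0.50 without wild-type pool 3, so the closest neighbour showed no settled direction. Among the 3 genes most like Clk3 over the 6 arrays were Mus81 (distance 0.11 log2 units) and Vamp2 (0.12), and the closest of all (0.10) had no symbol here.

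Csk, the kinase that shuts off Src family kinases by phosphorylating their tail, read -2.02, -1.31 and -1.04 in the wild-type pools and -1.04, -2.02 and -2.25 in the null pools. Its change of -0.31 (SE 0.37) was smaller than its spread within groups (SD 0.50 in wild type and 0.64 in null, n = 3 pools), and it ran from -0.68 to -0.07 with 1 pool left out. On slide 1 the null array lay 0.98 above the wild-type array, and on slides 2 and 3 it lay lower by 0.71 and 1.21.

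The pair of secretory carrier membrane proteins, which recycle membrane between the cell surface and internal compartments, had small changes of opposite sign. Scamp2 read 1.0, 1.15 and 1.54 in the wild-type pools and 1.39, 0.86 and 0.59 in the null pools, a change of -0.28 (SE 0.25). Scamp5, known best from neurons, read -3.62, -3.14 and -2.59 and then -2.39, -2.70 and -3.18, a change of 0.36 (SE 0.31). In both genes the groups overlapped, and with 1 pool left out the change ran from -0.51 to -0.11 for Scamp2 and from 0.11 to 0.62 for Scamp5.

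Cox5a, a nuclear-encoded subunit of cytochrome c oxidase, read 6.52, 6.20 and 5.95 in the wild-type pools and 5.55, 6.02 and 6.28 in the null pools. The groups overlapped, with a change of -0.28 (SE 0.24) that ran from -0.44 to -0.08 with 1 pool left out. Ulk3, a serine/threonine kinase known to act on the Gli factors of hedgehog signalling, was the only neighbour with 2 probes. The brighter read 0.15, 0.67 and 0.30 in the wild-type pools and 0.93, 0.64 and 0.59 in the null pools, a change of 0.35 (SE 0.20), and wild-type pool 2 lay above 2 of the null pools. The dimmer read -0.54, -0.36 and -0.40 and then 0.46, 0.02 and 0.04, a change of 0.61 with no overlap. Both probes of Ulk3 thus lay higher in the null pools on average, and they differed in whether the groups overlapped.

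Several of the neighbours shared a pattern within the groups, which was picked out after the values were seen. In 6 of the 10 (Clk3, Csk, Scamp2, Mpi, Rpp25 and Scamp5) wild-type pool 3 was the highest wild-type pool and null pool 1 the highest null pool. That held for 18.0% of all genes tested. The pattern was not particular to the list: among unlisted genes nearby, Ubl7 and 1700017B05Rik had it too, and Fam219b and Lman1l did not. Cox5a had the opposite pattern, lowest in both of those pools, as did 28.9% of all genes. Wild-type pool 3 and null pool 1 were also the arrays with the highest 75th percentile of signal in their groups, at 10.16 and 9.47. The part of signal strength in these values was not tested. The spread within groups had a median SD of 0.38 over the 10 genes and 0.26 over all genes.

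The wider neighbourhood was not part of the list and could be tested. Of the 90 other genes with a probe among the 50 nearest on either side of Arid3b, 73 were measured, and by limma 2 of them rose and 0 fell, beside 10.5% of all genes called in either direction. With median scaling 2 rose and 2 fell, and with array weights 5 rose and 3 fell. At an unadjusted p under 0.05 on the reported scale, 8 of the 73 were higher and 5 lower. Over all 21800 genes tested, 3294 were higher and 2572 lower at that p. Both genes that rose lay on the side away from the listed neighbours. Islr2, a membrane protein with leucine-rich repeats known from growing axons, lies 7 genes from Arid3b. It read -5.82, -5.34 and -5.21 in the wild-type pools and -2.77, -2.74 and -1.06 in the null pools, a rise of 9.65-fold (log2 change 3.27, SE 0.46, limma adjusted p = 0.00693). Its wild-type mean of -5.46 was as dim as that of Ppcdc, though its probe was well above background on all 6 arrays. The size of the fold is therefore uncertain. The lowest null pool of Islr2 stood well above its highest wild-type pool. Its call held under 16 of 17 alternatives, with a change of 1.39 and adjusted p = 0.0502 after normexp, the largest p among them, the smallest being 0.00281. Hexa, the alpha subunit of a lysosomal hexosaminidase, lies 23 genes away and read 1.18, 1.23 and 1.65 and then 2.45, 2.36 and 2.18. It rose 1.97-fold (log2 change 0.98, SE 0.19, limma adjusted p = 0.0199), but its call ended when the slide entered the fit as a block (adjusted p = 0.0978, the largest of its alternatives, the smallest being 0.00674), with no filter on dim probes, and when wild-type pool 1, wild-type pool 2 or null pool 2 was left out.

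On the side of the listed genes, 10 other genes within 25 of Arid3b were measured. Of these 0 passed in limma, and 0 had an unadjusted p under 0.05, with changes from -0.59 to 0.43. Among them, Fam219b (0.43, SE 0.20) and Lman1l (-0.11, SE 0.18) lie between the listed genes. The 2 probes of Fam219b disagreed: the dimmer, not used in the fit, read -3.72, -3.59 and -3.61 in the wild-type pools and -4.10, -3.85 and -3.90 in the null pools, lower without overlap. The other 3 genes in between, Cplx3 and the cytochrome P450 genes Cyp1a1 and Cyp1a2, were too dim to be measured, and Cyp1a1 and Cyp1a2 were well above background on 0 arrays. Between 26 and 50 genes away, 0 of 40 measured genes passed in limma. Of these, 10 had an unadjusted p under 0.05, 5 in each direction, beside 5866 of all 21800 genes tested. Over chromosome 9 as a whole, Arid3b left out, 94 of 846 genes were called (11.1%), 54 higher and 40 lower. Fam219b, Lman1l, Cplx3, Cyp1a1, Cyp1a2, 1700017B05Rik, Ubl7 and Cyp11a1 were named after their values were seen. Cyp11a1, the steroid side-chain cleavage enzyme, which trophoblast giant cells of the mouse also make, lies 3 genes from Arid3b and had a change of 2.92 (SE 1.66, limma adjusted p = 0.307). It read -8.56, -6.84 and -6.47 in the wild-type pools and -7.57, -5.26 and -0.27 in null pools 1, 2 and 3, and was well above background on 1 wild-type and 2 null arrays. Null pool 3 stood far above the rest. The part of the trophoblast genes given above in this value was not tested.

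**Figure D3:**
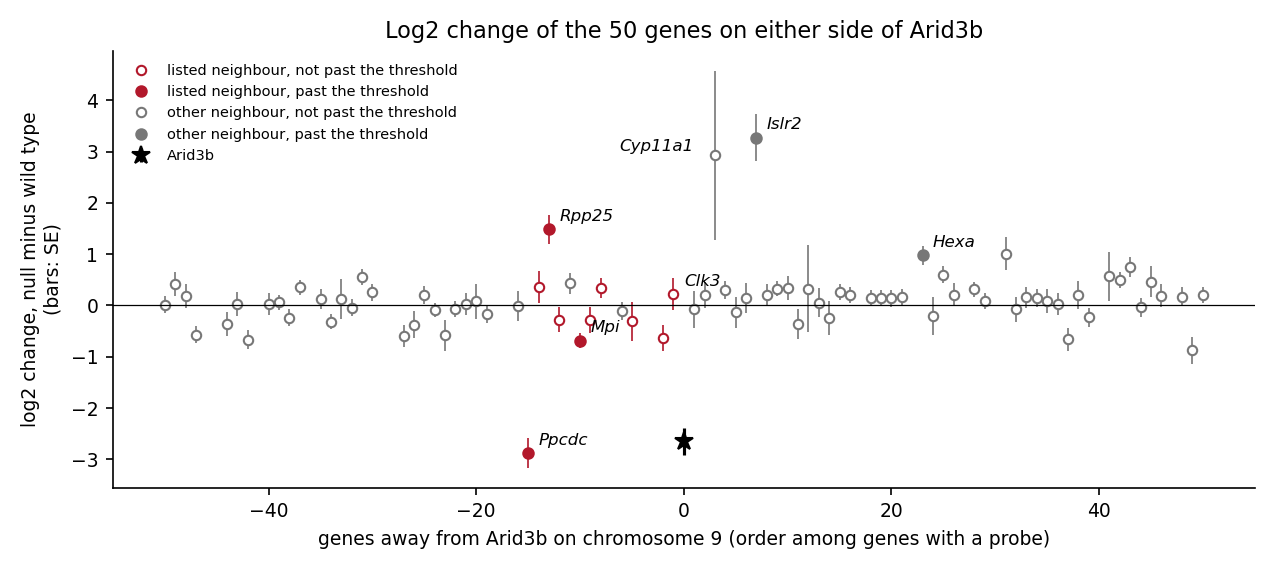
Log2 change (null minus wild type, with SE) of each measured gene among the 50 on either side of Arid3b, by the number of genes between (negative on the side of Ppcdc). Red marks the 10 listed neighbours, grey the others, filled points those past a limma adjusted p under 0.05, and the star Arid3b. The value of Ppcdc rests on null arrays at background, and the listed neighbours carry no test of their own. Islr2, Cyp11a1 (with a wide SE) and Rpp25 lie highest and Ppcdc lowest, and the filled points of Hexa and Mpi lie among open points of similar size.

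Genes that work with the neighbours elsewhere in the genome were compared through 9 lists drawn from general knowledge. The lists were chosen with earlier results of these data known, so the counts and p-values given for them are a description. Of 125 such partner genes 118 were measured, 6 rose and 3 fell, 7.63% of those measured beside 10.5% of all genes, with a median change of -0.08. The split depends on the scaling: with median scaling 6 rose and 13 fell. At an unadjusted p under 0.05 on the reported scale 14 partner genes were higher and 23 lower. Over all 21800 genes tested, 3294 were higher and 2572 lower at that p. Cytochrome c oxidase, to which Cox5a belongs, had the most, with 3 of 21 measured genes higher and 1 lower and a median of 0.11. Cox4i2, a form of subunit IV known to be made under low oxygen, rose 6.27-fold, from -0.69 ± 0.47 to 1.96 ± 0.17 (SD, n = 3 pools; log2 change 2.65, SE 0.25, limma adjusted p = 0.00165), and its call held under all 17 alternatives. Cox8b, a muscle form of subunit VIII, rose by 1.72 (SE 0.32, limma adjusted p = 0.0191) and Cox6b2, known from testis, by 1.11 (SE 0.24, limma adjusted p = 0.0294). Sco1, a copper chaperone for the enzyme and the fourth call of the list, fell by 0.64 log2 units (SE 0.16, limma adjusted p = 0.0481). Sco1 was named after its value was seen. Leaving out 1 pool ended the call of Cox8b for 4 pools (wild-type 2 and 3, null 2 and 3; adjusted p reached 0.0694), that of Cox6b2 for the same 4 and null pool 1 (0.101), and that of Sco1 for each of the 6 (0.161). Blocking on the slide gave an adjusted p of 0.0477 for Cox8b, 0.0870 for Cox6b2 and 0.231 for Sco1. Of the 17 alternatives, the call held under 13 for Cox8b, 10 for Cox6b2 and 7 for Sco1.

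In the mannose list, around Mpi, 2 of 14 measured genes rose and 0 fell, while 2 were lower at an unadjusted p under 0.05, and the list's median was 0.14. Gpi1, glucose phosphate isomerase, which feeds the same fructose phosphate from the glucose side, read 6.63, 6.77 and 6.60 in the wild-type pools and 7.35, 7.36 and 7.51 in the null pools (log2 change 0.74, SE 0.15, limma adjusted p = 0.0233). Hexokinase Hk2 rose by 1.71 (SE 0.37, limma adjusted p = 0.0297). Leaving out any pool other than null pool 1 ended the call of Gpi1 (adjusted p reached 0.0898), and leaving out wild-type pool 2 or 3 or null pool 2 or 3 ended that of Hk2 (0.0963). Blocking on the slide gave an adjusted p of 0.161 for Gpi1 and of 0.0501 for Hk2. The call of Gpi1 also ended after quantile normalization, after normexp, with the authors' table and with no filter on dim probes. It held under 7 of 17 alternatives, and that of Hk2 under 11. Mpi itself lay lower, as given above.

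Among partners of Csk, 1 of 13 measured genes rose and 1 fell, with a median of 0.18. Matk, the other kinase known to phosphorylate the tail of Src kinases, read -1.08, -1.35 and -1.40 in the wild-type pools and -0.01, 0.33 and 0.31 in the null pools. That was a rise of 2.80-fold (log2 change 1.49, SE 0.18, limma adjusted p = 0.00383), held under all 17 alternatives. The Src-related kinase Frk fell by 0.90 log2 units (SE 0.20, limma adjusted p = 0.0347). Leaving out any pool other than null pool 2 ended its call (adjusted p reached 0.0998), as did the slide block (0.136). After normexp its change was -0.31, and the call of Frk held under 8 of 17 alternatives. In the list around Clk3, 1 of 17 measured genes fell and 0 rose (0 higher also at an unadjusted p under 0.05), with a median of -0.15. The gene was Srpk3, a muscle kinase of SR proteins (-0.85, SE 0.18, limma adjusted p = 0.0294). Leaving out any 1 of the 6 pools ended its call (adjusted p reached 0.0950), as did the slide block (0.133). The call of Srpk3 held under 9 of 17 alternatives.

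In the other 5 lists limma called 0 genes. Their counts at an unadjusted p under 0.05 stand beside 3294 higher and 2572 lower of all 21800 genes tested. Coenzyme A synthesis, the pathway of Ppcdc, had a median of -0.46 over 8 measured genes, of which 7 were lower and 4 had an unadjusted p under 0.05, all 4 lower. The nearest to the threshold was the pantothenate kinase Pank2 (-0.54, SE 0.15, limma adjusted p = 0.0603, and from 0.0233 to 0.300 over its alternatives). RNase P and RNase MRP, the enzymes of Rpp25, had a median of -0.46 over 10 genes, of which 9 were lower and 4 had an unadjusted p under 0.05, all 4 lower. The subunit Rpp30 was nearest there (-0.62, SE 0.17, limma adjusted p = 0.0592, and from 0.0260 to 0.255 over its alternatives). Rpp25, at 1.48, thus lay on the other side of 0 from 9 of its 10 measured partners. The decapping list around Edc3 had a median of -0.19 over 18 genes, 3 of them lower and 0 higher at an unadjusted p under 0.05, with Lsm1, part of the Lsm ring on mRNA ends, nearest (-0.56, SE 0.16, limma adjusted p = 0.0699, and from 0.0302 to 0.296 over its alternatives). The list around Ulk3 had a median of 0.06 over 14 genes, 1 higher and 2 lower at an unadjusted p under 0.05, with Ulk4 nearest (0.65, SE 0.22, limma adjusted p = 0.109, and from 0.0328 to 0.247). Of the 3 other Scamp genes, Scamp1 came nearest (0.54, SE 0.16, limma adjusted p = 0.0797, and from 0.0146 to 0.318), and it was the one with an unadjusted p under 0.05.

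**Figure D4:**
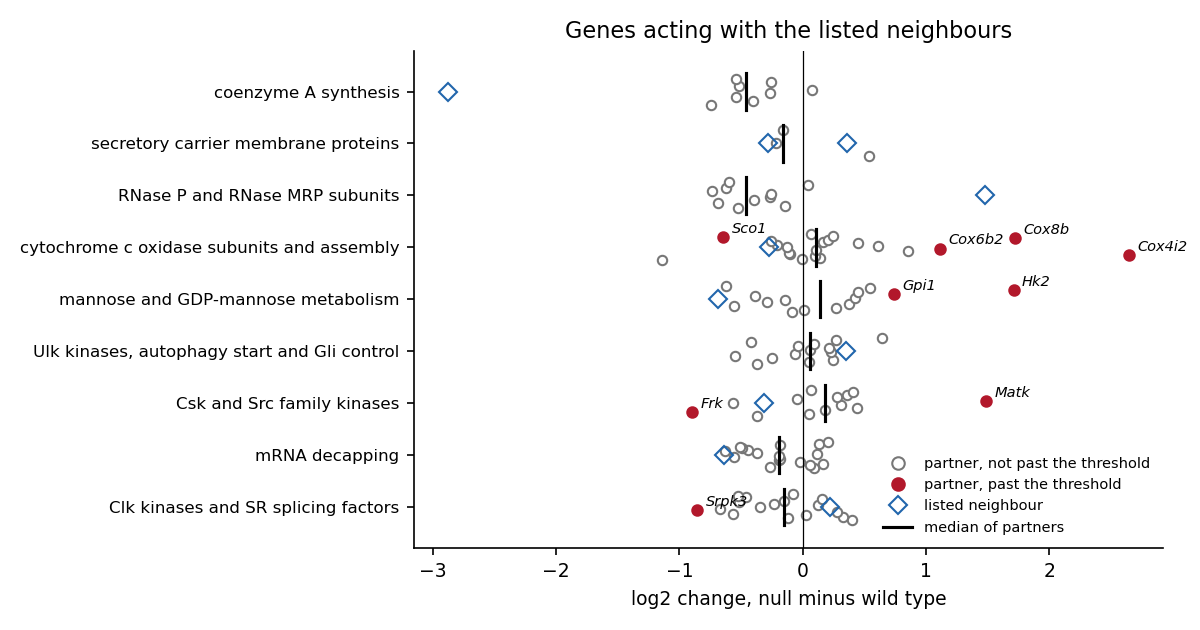
Log2 change (null minus wild type) of the measured genes in 9 lists of genes that act with the neighbours. Circles are partner genes, filled red and named where past a limma adjusted p under 0.05, bars are list medians and blue diamonds are the listed neighbours themselves, where the value of Ppcdc rests on null arrays at background. In the lists of Ppcdc and Rpp25 most partners lie left of 0, and Rpp25 lies right of 0.

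The direction of 9 of the 10 neighbours stayed the same under every alternative that measured them, namely 11 other ways of processing and 6 runs with 1 pool left out. The exception was Clk3, at -0.01 without wild-type pool 1. Median scaling of the arrays moved the median change of all genes from 0.03 to -0.11 and that of the 10 neighbours from -0.28 to -0.41. Against that shift Clk3, at 0.09 under median scaling, still lay above the median of all genes. The changes of Rpp25 and Mpi stayed well away from 0, but their calls were less steady. Rpp25 was called under 12 of 17 alternatives and Mpi under 8, and leaving out any 1 pool ended the call of Mpi. The changes of Csk, Scamp2, Cox5a and Scamp5 came to within 0.11 of 0 when 1 pool was left out.

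**Figure D5:**
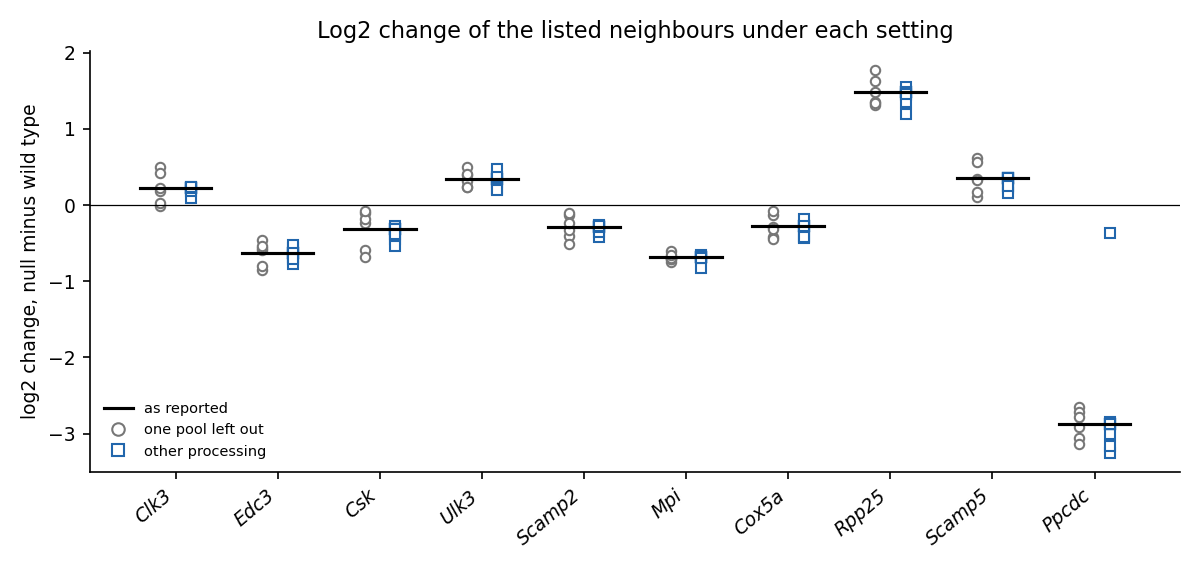
Log2 change (null minus wild type) of the 10 neighbours as reported (bars), with each pool left out in turn (grey circles) and under other processing (blue squares). The outlying square of Ppcdc at -0.37 is normexp background correction, and the Clk3 circles reach 0.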

How the data were processed

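Per the labels, total RNA was amplified, labelled with Cy3 and hybridised to Agilent single-colour arrays. Per the file headers, the arrays were of design 026655 and were read with Feature Extraction 10.7.3.1, which made the deposited intensity values, with background subtracted and no scaling between arrays. The other deposited columns used were 0 or 1 flags. The authors' deposited table of log2 values, made in a way not given in the sources, served as an alternative.

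Each array's 75th percentile of log2 signal over non-control spots was subtracted, outlier spots were left out and spots of a probe averaged. Probes well above background on at least 3 of 6 arrays were kept (26848 of 39429), and the brightest stood for its gene. Symbols and gene order came from RefSeq on GRCm38.p6 (26431 probes matched), while the file headers name mm9, so the only coordinates printed are those of RefSeq's own start windows. The comparison of the groups used limma 3.58.1 (R 4.3.3), with Benjamini-Hochberg adjustment over 21800 genes, two-sided. SE is the moderated standard error. The labels name pools, so p-values measure the spread between 3 pools per group. An exact permutation test of 3 against 3 cannot go below 0.1 and was not used.

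The neighbours, partner lists and markers were chosen with earlier results of these data known. The text names all probes of the neighbours and Arid3b, called genes within 25 genes of Arid3b, up to 3 called genes per partner list by p (or the 1 nearest), and the 3 genes most like Ppcdc and Clk3. Deviations of same-numbered pools from their group means correlated at -0.41, -0.09 and -0.41 across genes. The 3 deviations of a group sum to 0, so these values cannot settle whether the shared slide pairs the pools. The main fit left the slide out, and the slide block was an alternative. The alternatives were quantile normalization, median scaling, normexp with an offset of 50 on the median spot signal, no or a stricter filter on dim probes, array weights, a robust prior with a trend, the slide block, averaging all probes of a gene, keeping outlier spots, the authors' table and each pool left out. Tested on simulated data for this comparison (21784 genes, 20 runs), the fit recovered 0.4%, 27.4%, 75.5% and 91.8% of genes shifted by 0.5, 1, 2 and 3 log2 units. Each run shifted only a small share of the genes, all upwards, whereas 10.5% of genes were called here, in both directions. The adjustment depends on that share, so these rates need not hold for the real comparison.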

Additional observations from a re-analysis of the deposited data

How the results depend on the processing

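Of all genes, 2279 were called, against 3817 with array weights, 1037 with dim probes kept, 742 with the replicate number (the slide) as a block and 833 to 1753 with 1 pool left out. With median scaling the split of 1448 higher and 831 lower turned to 1105 and 1399. Of the 10 neighbours 3 were called, 1 with the replicate block, 1 with no filter and 1 to 2 with 1 pool left out. Of the unlisted neighbours 2 were called, 4 with quantile normalization or median scaling, 5 with normexp or the strict filter, 7 with the trended prior, 8 with array weights, 1 with no filter or the replicate block and 1 to 4 with 1 pool left out. Of the partner genes 9 were called, 14 with quantile normalization, 19 with median scaling, 16 with normexp, 15 with the strict filter, 17 with the trended prior, 24 with array weights, 3 with no filter or the replicate block and 2 to 6 with 1 pool left out. The cause of these shifts was not tested. The median change of the 10 neighbours moved by less than its spread between pools, from -0.41 to -0.09. Dim signal limits Ppcdc to a rough lower figure.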
